A study of Mus musculus with 26 samples.

Results

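The genes described here are 10 genes of T cells, Cd3d, Cd3e, Cd3g, Cd247, Cd2, Cd5, Cd4, Cd8a, Lck and Nkg7, chosen by their symbol among the 39017 genes of the count tables. All 10 were found. Their RNA was measured in the epididymal fat of male C57BL/6J mice that entered the diets at 9 to 10 weeks of age. Lean mice (LFD) ate a diet with 10% fat and obese mice (HFD) one with 60% fat, each for 12 weeks. Formerly obese mice (SW) ate the 60% fat diet for 9 weeks and were then switched to the 10% fat diet for 3 weeks. The fat was minced and digested with collagenase, and centrifugation split it into floating adipocytes and pelleted stromal vascular cells (SVC), whose red blood cells were lysed. No group was sorted for T cells, so both fractions are mixtures of cell types. RNA sequencing gave 15 libraries used here, 3 each for LFD, HFD and SW adipocytes, and 1 LFD, 2 HFD and 3 SW libraries of SVC.

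T cells recognise antigen through the T cell receptor, whose variable chains cannot signal on their own. The CD3 chains, made by Cd3d, Cd3e and Cd3g, and the zeta chain, made by Cd247, carry the signal into the cell, where the kinase Lck starts it. CD4 marks helper and regulatory T cells and CD8 marks cytotoxic T cells, and each brings Lck to the receptor. Cd2 makes an adhesion receptor, Cd5 an inhibitor of receptor signalling, and Nkg7 a protein of cytotoxic granules. Several of these genes are shared with other cells: Nkg7, Cd247 and Lck with natural killer (NK) cells, Cd2 and Cd5 with B cells, and Cd4 and Cd8a with some dendritic cells. T cells of fat tissue are known to change in number and kind with obesity.

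The libraries held 5781902 to 23725647 counts, and the smallest totals were in LFD mice. Values are given as counts and as CPM, counts relative to the library's total scaled with TMM factors of the fraction, which adjust for differences in RNA composition. Libraries are numbered within each group. In SVC the 2 HFD libraries stood apart from each other, with mitochondrial transcripts at 6.34% of the counts in HFD library 1 and 33.5% in HFD library 2. Hemoglobin transcripts, of red blood cells, were 0.287% of the counts in HFD library 1 and 2.76% to 5.15% in the other SVC libraries. Adipocyte genes followed the labels of the fractions. Adipoq, the adipocyte hormone adiponectin, had 3370, 1050 and 2078 CPM on average in LFD, HFD and SW adipocytes. In SVC libraries it had 12.8 to 68.5 CPM. Of 7 adipocyte genes, 7 were lower in SVC than in adipocytes in HFD and in SW mice, against 12.9% and 32.8% of all genes. Other lists did not split this way. Of 5 endothelial genes, 4 were also lower in SVC in HFD and in SW mice. Of 6 pan-leukocyte genes, 3 were higher in SVC in HFD mice and 4 in SW mice, against 16.2% and 35.6% of all genes. In SW mice 1 of the 6 was lower. In bulk RNA, fewer T cells and less RNA per T cell cannot be told apart.

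Most T cell genes made up a larger share of the counts in SVC than in adipocytes of HFD and SW mice. CPM compares such shares and not the amount of transcript in each fraction of the fat. Summed over the 10 genes, the libraries of SVC held 43.6 to 204.5 CPM and those of adipocytes 13.0 to 77.9 CPM. Lean mice had 1 SVC library and were not tested. With TMM factors of the fit of both fractions, Cd247 was at 9.53 CPM there, below the LFD adipocyte mean of 11.9 CPM. Cd3g was at 0.867 against 0.835 CPM, and the other genes were higher in SVC. In HFD mice, 10 of 10 genes were higher in SVC than in adipocytes (edgeR's quasi-likelihood test, Benjamini-Hochberg adjusted over 17441 genes, threshold 0.05), where 16.2% of all genes tested were higher. The median log2 fold change was 2.76 over these genes and 0.077 over all genes. With TMM factors of the fit of both fractions, every SVC library lay above every adipocyte library for 10 of 10, which was the case for 25.8% of all genes. With factors of each fraction this was 9 of 10, those other than Cd247, against 16.7% of all genes. In SW mice 8 of 10 were higher, against 35.6% of all genes, with a median log2 fold change of 2.25 against 0.086. The same 8 did not overlap between the fractions with factors of the fit of both, as was the case for 35.8% of all genes. With factors of each fraction these were 5, Cd3e, Cd2, Cd5, Cd4 and Lck, against 27.4%. The number of genes past the threshold in HFD mice rests on single libraries. It was 1, Cd3e, without SVC HFD library 2, which leaves 1 SVC library, where 6.94% of all genes were higher. It was 4 without adipocyte HFD library 2, where 10% were. Of 4 hemoglobin genes, 4 were also higher in SVC, with a median log2 fold change of 5.20 in HFD and 4.73 in SW mice, and the part of blood in the T cell values was not tested.

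**Figure D1:**
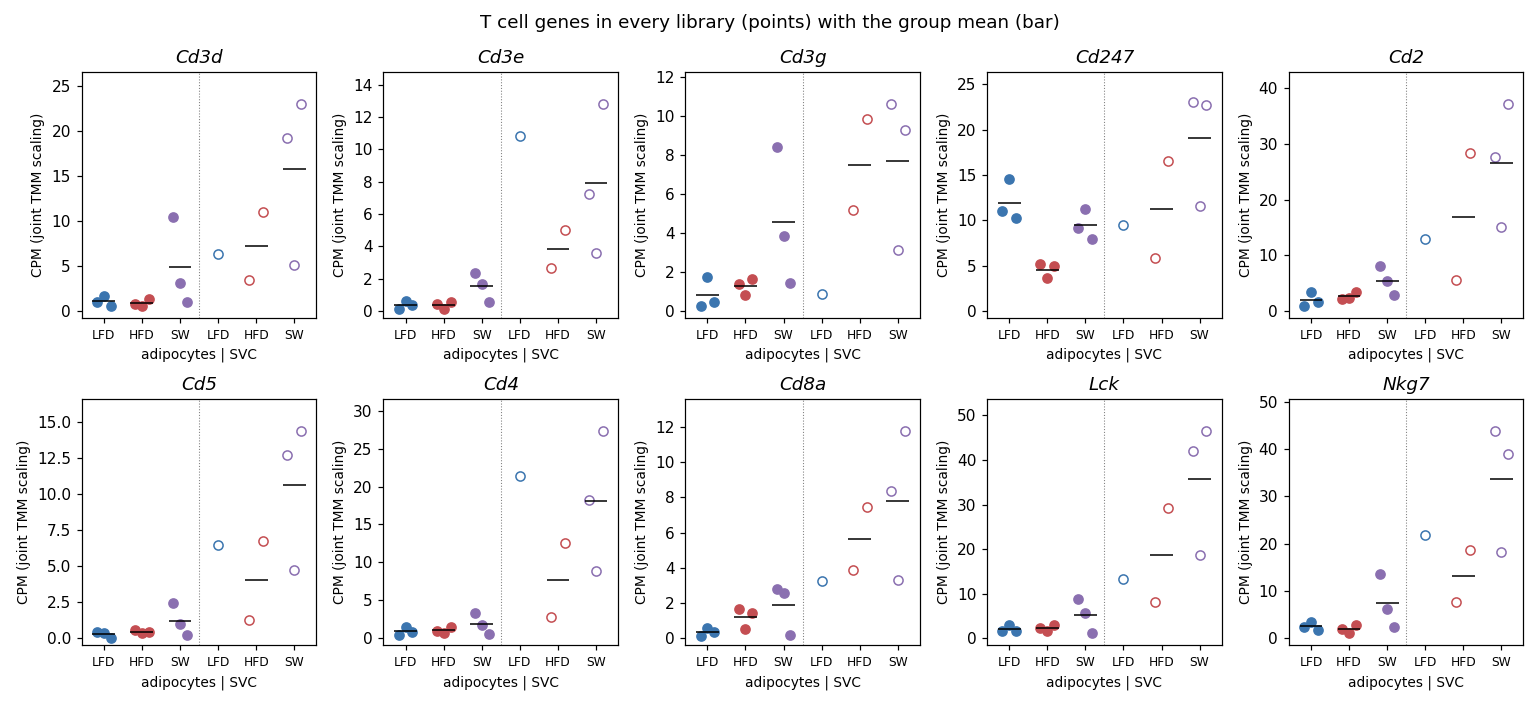
Level of each T cell gene in CPM (TMM factors of the fit of both fractions, vertical axis from just below 0) in LFD, HFD and SW libraries of adipocytes (filled points) and SVC (open points), with 1 point per library and a bar at the mean of groups with more than 1 library. Points of a group run from library 1 on the left to library 3 on the right. In SW adipocytes library 3 is the lowest for each gene, and in SW libraries of SVC library 2 is.

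Cd4, the coreceptor of helper T cells, showed the largest difference between fractions in SW mice. It had 150, 174 and 209 counts in SW libraries of SVC and 35, 32 and 8 in those of adipocytes. The levels were 15.2 ± 7.86 CPM and 2.06 ± 1.56 CPM (SD, n = 3 each), without overlap. With TMM factors of the fit of both fractions the means were 18.1 and 1.84 CPM. The log2 fold change of that fit was 3.33 (SE 0.68, adjusted p = 0.000724), or 10.0-fold. Lck, the kinase, had 347, 370 and 356 counts in SVC and 94, 105 and 18 in adipocytes of SW mice, with a log2 value of 2.79 (SE 0.62, adjusted p = 0.00139). Cd3d and Cd3g did not pass in SW mice, at 1.72 (adjusted p = 0.0524) and 0.75 (adjusted p = 0.322), and their SW adipocyte and SVC libraries overlapped. Cd3e had the largest value in HFD mice, 3.39 (SE 0.72, adjusted p = 0.00448), from 43 and 61 counts in SVC and 6, 3 and 14 in adipocytes. Cd247 had the smallest difference of the genes that passed in both diets, 1.29 in HFD mice (adjusted p = 0.0257) and 1.00 in SW mice (adjusted p = 0.0225).

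Levels per kilobase of the longest annotated transcript put Nkg7, Cd2 and Lck at the top in the HFD and SW libraries of SVC, at 32.1, 19.4 and 13.7 CPM per kb in SW mice. The lowest were Cd8a in SW mice, at 2.10 CPM per kb, and Cd5 in HFD mice, at 1.16. The order differed in LFD adipocytes, where Cd247 was the highest, at 4.52 CPM per kb, and Cd5 the lowest, at 0.0991.

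The 3 CD3 genes lie together on chromosome 9, with the starts of Cd3d and Cd3g 1355 bases apart on opposite strands, while Cd247 lies on chromosome 1. Their promoters are shown because these genes make parts of 1 receptor and are compared with each other below. The sequences are the 250 bases before the RefSeq start in GRCm38.p6, at chr9:44981536-44981785 (+ strand) for Cd3d, chr9:44980432-44980681 (- strand) for Cd3g, chr9:45009612-45009861 (- strand) for Cd3e and chr1:165788431-165788680 (+ strand) for Cd247. Each reads 5′ to 3′ on the strand of its gene, and capitals mark the E box CACCTG, or CAGGTG on the other strand, a motif bound by E proteins of lymphocytes.
Cd3d: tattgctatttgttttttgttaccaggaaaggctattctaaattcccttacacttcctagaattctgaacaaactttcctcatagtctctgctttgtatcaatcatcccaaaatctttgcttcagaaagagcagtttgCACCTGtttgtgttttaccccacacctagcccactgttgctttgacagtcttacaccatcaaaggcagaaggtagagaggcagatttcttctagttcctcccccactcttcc
Cd3g: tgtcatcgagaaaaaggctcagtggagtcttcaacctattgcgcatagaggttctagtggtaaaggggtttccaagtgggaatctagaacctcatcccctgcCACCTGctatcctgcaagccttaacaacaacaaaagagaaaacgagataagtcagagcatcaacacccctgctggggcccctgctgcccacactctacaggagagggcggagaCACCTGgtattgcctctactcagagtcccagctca
Cd3e: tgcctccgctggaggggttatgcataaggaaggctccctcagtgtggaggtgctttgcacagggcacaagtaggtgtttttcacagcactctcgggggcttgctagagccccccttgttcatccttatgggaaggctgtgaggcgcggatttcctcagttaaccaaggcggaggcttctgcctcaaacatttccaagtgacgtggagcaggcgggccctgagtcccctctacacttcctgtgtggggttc
Cd247: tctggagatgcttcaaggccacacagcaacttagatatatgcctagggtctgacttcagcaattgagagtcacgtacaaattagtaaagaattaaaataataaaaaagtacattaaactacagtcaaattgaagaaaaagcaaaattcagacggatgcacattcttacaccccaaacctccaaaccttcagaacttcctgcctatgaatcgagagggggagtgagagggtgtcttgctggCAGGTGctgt
Of the 10 genes, 8 were matched, with 9 windows, since Lck has 2. The E box was in 5 of 9 windows and in 17.2% of all 32851 windows of this length. Among 4 motifs searched on both strands, the Ets core GGAAGT was in 6 of 9 windows against 19.7% of all, the RUNX core TGTGGT in 2 against 14%, and TATAAA in 0 against 12.4%. The 4 promoters printed hold the E box 2 times for Cd3g, 1 time each for Cd3d and Cd247 and 0 times for Cd3e in these windows. These matches describe the letters and do not show binding.

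The comparison of obese with lean mice asks what the diet changed. In adipocytes, T cell genes other than Cd247 did not pass the test between HFD and LFD mice. Of 10 genes, 8 had enough counts to be tested. Cd247 alone passed, lower in HFD mice, where 51.5% of all 14461 genes tested passed in either direction. The median log2 fold change was 0.068 over the 8 and -0.025 over all genes. Cd3e had 1, 13 and 3 counts in LFD and 6, 3 and 14 in HFD adipocytes, and Cd5 had 3, 8 and 0 in LFD and 8, 10 and 10 in HFD adipocytes. The 0 of Cd5 in LFD library 3 allows up to 0.3995 CPM, 3 counts of its total. Both genes were below the filter on low counts.

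Cd247, the zeta chain, had 79, 315 and 86 counts in LFD adipocytes and 77, 95 and 122 in HFD adipocytes. These were 13.4 ± 2.56 CPM in LFD and 5.07 ± 0.97 CPM in HFD mice (SD, n = 3 each), and every HFD library lay below every LFD library, as for 30.5% of all genes. The log2 fold change of Cd247 was -1.42 (SE 0.21, adjusted p = 0.000442), with adjusted p between 7.50e-08 and 0.00316 over 14 alternatives. Of 4 hemoglobin genes, 4 were also lower in HFD mice, against 25% of all genes. Their summed level was 2116 to 3188 CPM in LFD and 607.7 to 755.1 CPM in HFD adipocytes. Lower as well were 5 of 7 adipocyte, 3 of 5 endothelial and 3 of 5 mesothelial genes. The part of blood or of these cell types in the Cd247 values was not tested. Cd8a had 1, 12 and 3 counts in LFD and 25, 14 and 35 in HFD adipocytes, or 0.391 ± 0.230 and 1.34 ± 0.675 CPM (SD, n = 3 each). The HFD libraries overlapped with the deepest LFD library, and the log2 fold change of 1.53 did not pass (SE 0.88, adjusted p = 0.169). The other 6 genes tested had log2 fold changes between -0.45, for Cd3d, and 0.36, for Cd3g, with standard errors from 0.47 to 0.80.

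Other leukocyte genes moved far in the same libraries. Of 6 pan-leukocyte genes, 6 were higher in HFD than in LFD adipocytes, against 26.5% of all genes. Ptprc, the leukocyte surface phosphatase CD45, rose from 22.1 ± 8.12 to 187.9 ± 46.9 CPM (SD, n = 3 each), a log2 fold change of 3.08 (SE 0.30, adjusted p = 3.40e-05). Of the 11 macrophage genes listed, 10 were matched and 10 were higher, with a median log2 fold change of 2.92, and their summed level was 664 to 1104 CPM in LFD and 7459 to 8548 CPM in HFD adipocytes. The summed level of the 10 T cell genes was 19.9 to 34.6 CPM in LFD and 13.0 to 23.3 CPM in HFD adipocytes, so these ranges overlapped. This sum leans on Cd247, which gave 79 of 132, 315 of 670 and 86 of 151 counts in LFD libraries. In HFD libraries it gave 77 of 257, 95 of 312 and 122 of 522. The 3 CD3 chains together were at 1.59, 4.49 and 1.58 CPM in LFD and 2.86, 1.63 and 3.89 CPM in HFD libraries. The share of macrophage RNA in the T cell values was not tested.

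**Figure D2:**
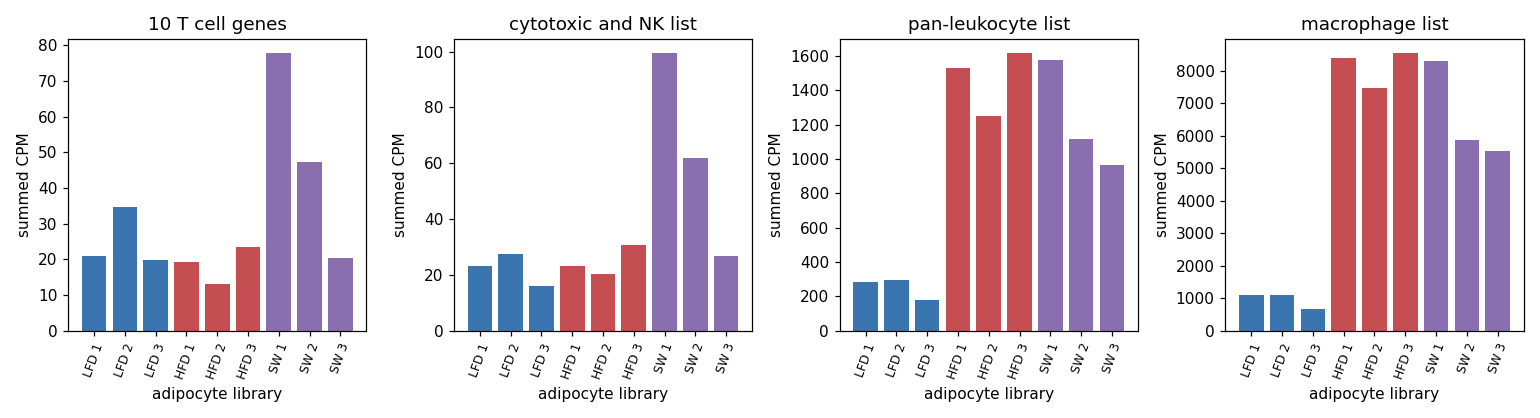
Summed CPM (vertical axes from 0) of the 10 T cell genes, of the cytotoxic and NK list, of the pan-leukocyte list and of the macrophage list in each adipocyte library, blue for LFD, red for HFD and purple for SW. The macrophage and pan-leukocyte sums are higher in HFD and SW than in LFD libraries, whereas the T cell and cytotoxic sums are highest in the SW libraries 1 and 2.

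The switch from the high to the low fat diet came with higher levels of some T cell genes in adipocytes. Between SW and HFD mice 3 of 8 genes tested passed, Cd3d, Cd247 and Nkg7, each higher in SW mice, where 31.4% of all genes passed and 15.6% were higher. The median log2 fold change was 1.12 over the 8 and 0.0069 over all genes. Cd3d, a CD3 chain, had 11, 14 and 32 counts in HFD and 111, 57 and 16 in SW adipocytes, or 0.947 ± 0.436 and 5.41 ± 5.54 CPM (SD, n = 3 each). SW libraries 1 and 2 lay above all HFD libraries and SW library 3 among them. The log2 fold change of Cd3d was 2.46 (SE 0.74, adjusted p = 0.0313), and its adjusted p ran from 0.00386 to 0.127 over 13 alternatives. Nkg7, the granule protein, had 28, 31 and 70 counts in HFD and 146, 114 and 38 in SW adipocytes, with the same library lowest. Its log2 fold change was 1.91 (SE 0.56, adjusted p = 0.0292), with adjusted p from 0.00406 to 0.100 over 14 alternatives. Cd247 rose from 5.07 ± 0.97 to 10.6 ± 1.86 CPM (SD, n = 3 each), from 98, 209 and 124 counts in SW libraries, without overlap, as for 23.3% of all genes in this direction. This was a log2 fold change of 1.07 (SE 0.21, adjusted p = 0.00799). Of 4 hemoglobin genes, 4 were higher in SW than in HFD adipocytes too, with a median log2 fold change of 1.20. Their summed level was 2128, 1309 and 1517 CPM in SW libraries 1, 2 and 3, above all HFD libraries, and highest in the library with the highest T cell sum. Of 7 adipocyte genes, 3 were higher in SW than in HFD adipocytes too, and of 5 endothelial genes 0 were. The part of blood or of adipocytes in the T cell values was not tested.

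The number of genes that passed rests on single libraries. Over all genes, SW library 1 stood apart from its group: the chi-square per degree of freedom was 89.5 and 80.4 with libraries 2 and 3, against 12.8 between those, and 15.9 to 39.3 within the LFD and HFD adipocytes. SW library 1 also had the highest summed level of the 10 genes, 77.9 CPM, and the lowest TMM factor of the adipocytes, 0.842. SW library 3 had the lowest CPM of the 3 SW adipocyte libraries for each of the 10 genes, and a summed level of 20.5 CPM against 47.2 CPM in library 2. Without it, 8 of 10 genes passed between SW and HFD mice, those other than Cd4 and Cd8a, each higher in SW mice, where 12.3% of all genes were higher. Leaving out the lowest library raises the SW mean of each of these genes. This number thus shows only how far the result rests on that library. Lck, with 34, 43 and 74 counts in HFD and 94, 105 and 18 in SW adipocytes, went from a log2 fold change of 1.17 (adjusted p = 0.140) to 1.65 (adjusted p = 0.0189). Cd3g, with 21, 22 and 41 counts in HFD and 90, 72 and 22 in SW adipocytes, went from 1.80 (adjusted p = 0.0586) to 2.24 (adjusted p = 0.0268). Cd3e and Cd5, not tested with all libraries, were then past the filter on low counts, at 2.47 and 1.95 (adjusted p = 0.0242 and 0.0492). Cd2 passed narrowly, at 1.33 (adjusted p = 0.0498). Without SW library 1, or without HFD library 1, 2 or 3, Cd247 alone passed, and Cd247 alone passed with limma-voom. The summed level of the cytotoxic and NK list was also lowest in SW library 3, at 99.6, 61.7 and 26.5 CPM in SW libraries 1, 2 and 3. Of 6 B cell genes tested, 2 were higher in SW than in HFD adipocytes and 0 lower, against 15.6% and 15.9% of all genes. Cd79a, a chain of the B cell receptor, was among the higher ones, with a log2 fold change of 1.60 (adjusted p = 0.0415). Cd79a was highest in SW library 2, with 55, 163 and 60 counts in the 3 SW libraries. With all libraries, 4 of 10 macrophage genes were lower in SW than in HFD mice, against 15.9% of all genes. Ptprc fell by 0.80 on the log2 scale (adjusted p = 0.0451). The part of B cells or NK cells in the T cell values was not tested.

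**Figure D3:**
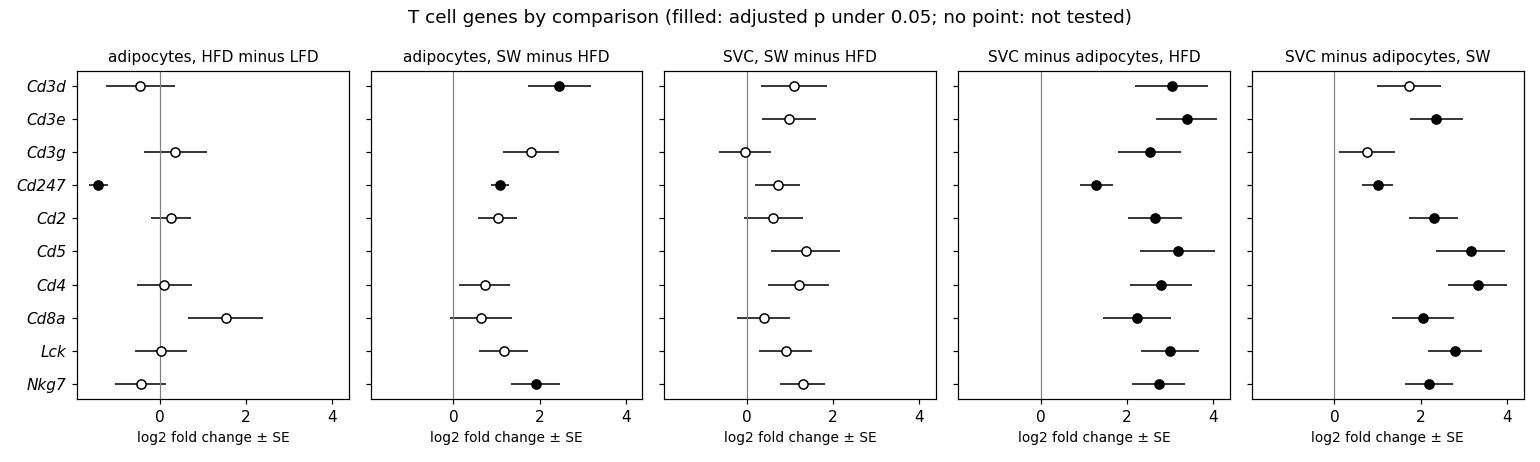
Log2 fold change with its standard error (horizontal axis) of each T cell gene in 5 comparisons, from edgeR's quasi-likelihood test, with filled points for adjusted p under 0.05 and no point for Cd3e and Cd5 in adipocytes, which were not tested. All 10 points are filled between the fractions in HFD mice, 8 in SW mice, 3 between SW and HFD adipocytes, 1 between HFD and LFD adipocytes and 0 between SW and HFD SVC.

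Set against lean mice, 0 of 8 genes passed between SW and LFD adipocytes with edgeR's quasi-likelihood test, where 17.1% of all genes passed. An unadjusted p under 0.05 was seen for 5, Cd3d, Cd3g, Cd2, Cd8a and Nkg7, while 4 passed with DESeq2, where 21.1% of all genes passed, and 0 with limma-voom. Cd3g, the gamma chain of CD3, had 2, 38 and 4 counts in LFD and 90, 72 and 22 in SW adipocytes, a log2 fold change of 2.17 (SE 0.70, adjusted p = 0.0608). Cd2 had 7, 75 and 14 counts in LFD and 86, 99 and 45 in SW adipocytes, at 1.28 (SE 0.47, adjusted p = 0.0890). For both genes LFD library 2, with 19720207 counts the deepest of its group, lay within the SW range. Without SW library 3, 8 of 10 passed, those other than Cd247 and Cd4, where 14.6% of all genes passed. This again leaves out the lowest SW library, and Cd3e and Cd5 among the 8 were not tested with all libraries. Without LFD library 2, Cd3g and Cd2 passed, where 11.5% of all genes did. Cd247 was at -0.35 (adjusted p = 0.277). The methods of the study also set 1 diet against the other two, with weights that can be read as lean mice apart and a written expression that puts obese mice apart. With lean mice apart, Cd247 alone passed, at a log2 value of -0.89, lower in HFD and SW mice together than in LFD mice (SE 0.18, adjusted p = 0.00316), where 40.1% of all genes passed. Cd2 passed besides it without LFD library 2, and Cd8a without SW library 3. With obese mice apart, Cd247 again passed alone, lower in HFD than in LFD and SW mice together, at -1.25 (SE 0.19, adjusted p = 0.000621), where 50.5% of all genes passed.

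In the SVC, 0 of 10 genes passed between SW and HFD mice with edgeR's quasi-likelihood test, where 17.5% of 16319 genes passed, and the median log2 fold change was 0.93 against 0.034 over all genes. An unadjusted p under 0.05 was seen for 1 gene, Nkg7, which was also the 1 gene that passed with DESeq2, where 32% of all genes passed, and 0 passed with limma-voom. Nkg7 had 124 and 229 counts in HFD and 362, 362 and 298 in SW libraries. These were 7.19 and 15.8 CPM in HFD and 15.0 to 37.3 CPM in SW mice, a log2 fold change of 1.30 (SE 0.52, adjusted p = 0.112). The ranges overlapped for this gene and for the other 9. SW library 2 was the lowest of its group and HFD library 1 the lower of its pair for each of the 10 genes. HFD library 1 also had the lowest summed level of the hemoglobin genes in SVC, 2178 CPM against 25307 to 52007 CPM, and its part in the T cell values was not tested. Without HFD library 2, which leaves 1 HFD library assumed to vary like the other groups, Cd2 and Cd5 passed, where 39.1% of all genes did. Without SW library 1 or 2, 0 of all genes passed.

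In the SVC the CD3 chains had 182 to 345 counts together in HFD and SW libraries, and in adipocytes 38 to 226. Cd3d had 55 and 134 counts in HFD and 159, 101 and 176 in SW libraries, or 6.22 ± 4.28 CPM (SD, n = 2) and 13.3 ± 8.02 CPM (SD, n = 3). Cd3e had 43 and 61 counts in HFD and 60, 71 and 98 in SW libraries, or 3.35 ± 1.21 and 6.62 ± 3.92 CPM. Cd3g had 84 and 121 counts in HFD and 88, 62 and 71 in SW libraries. Its log2 fold change of -0.041 (SE 0.61, adjusted p = 0.966) was the lowest of the 10, while those of Cd3d and Cd3e were 1.09 (SE 0.76) and 0.97 (SE 0.62).

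Among the other genes in the SVC, Cd4 had 46 and 153 counts in HFD and 150, 174 and 209 in SW libraries, a log2 fold change of 1.20 (SE 0.72, adjusted p = 0.240). Cd8a had 63 and 91 counts in HFD and 69, 65 and 90 in SW libraries, at 0.39 (SE 0.61, adjusted p = 0.644). Lck had 131 and 358 counts in HFD libraries, against 347, 370 and 356 in SW libraries. In CPM these were 7.60 and 24.7 in HFD and 15.3 to 39.0 in SW mice, so 1 HFD library lay within the SW range. Cd5, the inhibitor of receptor signalling, had 21 and 83 counts in HFD and 105, 94 and 110 in SW libraries, or 1.22 and 5.72 CPM against 3.88 to 12.0 CPM. Cd2, the adhesion receptor, had 90 and 348 counts in HFD and 228, 297 and 285 in SW libraries, or 5.22 and 24.0 CPM against 12.3 to 31.2 CPM. For Cd4, at 2.67 and 10.55 CPM in the HFD libraries, and for Lck, Cd5 and Cd2 the higher HFD library had over 3 times the CPM of the lower.

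Whether the change between SW and HFD mice differed between the fractions was tested in 1 fit of all libraries. It differed past the threshold for 0 of 10 genes with edgeR's quasi-likelihood test, with DESeq2 and with limma-voom, and 0 had an unadjusted p under 0.05, where 27.1% of all genes passed. The median difference was -0.32 on the log2 scale. With standard errors of 0.53 to 1.11 for the genes other than Cd5, a difference of 1 on the log2 scale lay within 2 standard errors for each of them. Standard errors were derived from the log2 value and the test statistic. For Cd5, with a value of -0.019 near 0, this gave 0.64. That is below the 0.80 and 0.88 of its differences between fractions in SW and in HFD mice, so it is not used.

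The 1 LFD library of SVC has no replicate, so it was compared without a test and its intervals cover counting error only. Cd4 had 99 counts there, 17.1 CPM before TMM scaling (95% Wilson interval 14.1 to 20.8), Nkg7 had 101 and Lck 61. Its summed level over the 10 genes was 86.1 CPM, between those of the 2 HFD libraries, 43.6 and 122.8 CPM. The CD3 chains were in another proportion than elsewhere in SVC. Cd3e made up 50 of 83 CD3 chain counts, or 60.2% (95% exact interval 48.9 to 70.8), and Cd3g 4 of 83, or 4.82% (1.33 to 11.9). In the other 5 SVC libraries Cd3e made up 19.3% to 30.3% and Cd3g 20.6% to 46.2%. Exons of Cd3e overlap those of Gm48719 on the opposite strand, and whether strand was used in counting is not given in the sources used here. The balance of leukocyte genes also varied among the SVC libraries. Cd53 had 14.5 counts per 1000 counts of Laptm5, a lysosomal leukocyte gene, in this library, 94.8 and 194 in the HFD and 29.0 to 43.8 in the SW libraries. Ptprc had 12.9, within the 5.49 to 15.2 of the SW libraries, and 64.2 and 214.5 in the HFD libraries. The part of this balance in the values of the T cell genes was not tested. For this reason no ratio of T cell genes to Ptprc is given. The summed level of the 7 B cell genes was 2273 CPM in this library, 740.1 and 899 CPM in the HFD and 1170 to 1355 CPM in the SW libraries of SVC, and its part in the values of Cd2 and Cd5 was not tested.

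Cd247 moved apart from the CD3 chains in adipocytes. LFD libraries held 7.90, 3.62 and 7.17 Cd247 counts per count of Cd3d, Cd3e and Cd3g together, HFD libraries 2.03, 2.44 and 1.40, and SW libraries 0.434, 1.31 and 2.64. The SVC libraries held 0.504 to 0.974. The LFD adipocyte ratios were thus the highest, above every HFD, SW and SVC ratio. Across the 9 adipocyte libraries the log2 CPM of Cd247 had a Pearson r of 0.298 with the mean of the 3 CD3 chains, whereas Cd2, Cd5, Cd4, Cd8a, Lck and Nkg7 had 0.76 to 0.95. These libraries differ in depth and diet, so the values of r are descriptions. Exons of Cd247 overlap those of Pou2f1, a transcription factor gene on the opposite strand, and of Gm16565 on the same strand. Pou2f1 had 8.84, 12.2 and 8.20 CPM on average in LFD, HFD and SW adipocytes, so it was not lowest in HFD mice as Cd247 was. Gm16565 had 1.88, 0.796 and 1.36 CPM, lowest in HFD mice as Cd247 was. The assignment of shared reads among these genes was not tested.

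**Figure D4:**
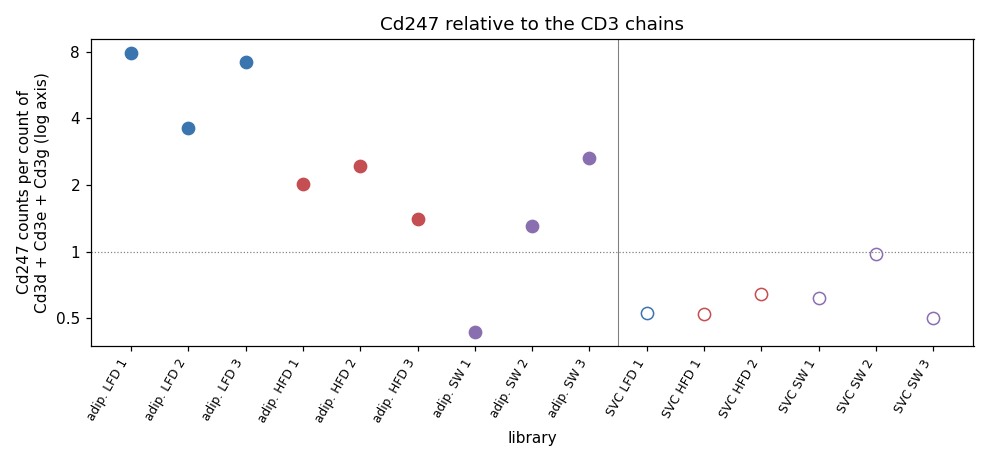
Counts of Cd247 per count of Cd3d, Cd3e and Cd3g together (vertical log axis) in each library, filled points for adipocytes and open points for SVC. The 3 LFD adipocyte libraries lie between 3.62 and 7.90, and the SVC libraries between 0.504 and 0.974.

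The balance of Cd8a and Cd4 also varied. Of the counts of both genes, Cd8a made up 13.2% in the LFD library of SVC (95% exact interval 7.56 to 20.8), 57.8% (48.0 to 67.2) and 37.3% (31.2 to 43.7) in the HFD libraries, and 31.5%, 27.2% and 30.1% in the SW libraries. Both HFD libraries thus lay above the 3 SW libraries and the LFD library, and the interval of HFD library 2 overlapped with those of the SW libraries. The transcripts differ little in length, 3128 bases for Cd8a and 3108 for Cd4. In adipocytes the share was 25.0% to 30.0% in LFD, 42.4% to 62.5% in HFD and 27.3% to 60.0% in SW libraries. The LFD shares rest on 4, 44 and 10 counts. Cd8b1, the other chain of CD8, had 13 counts in SVC of LFD mice, 42 and 123 in HFD mice and 62 to 99 in the SW libraries.

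**Figure D5:**
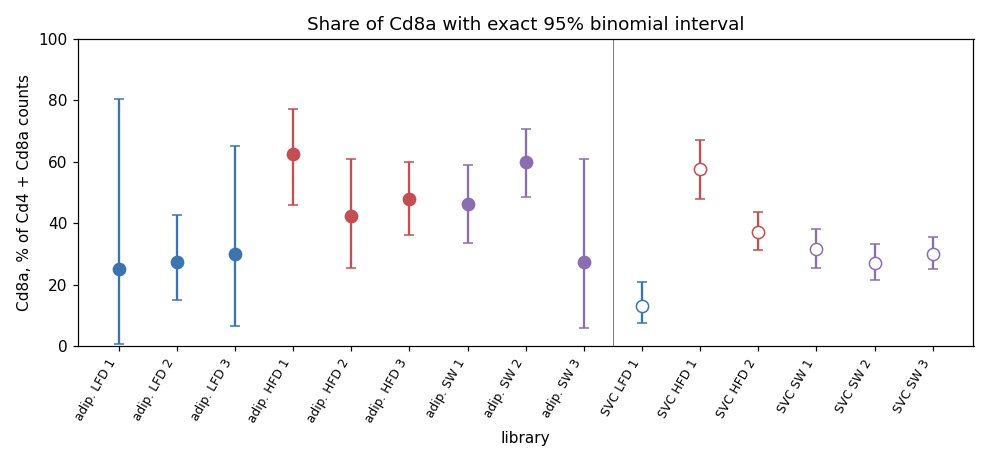
Cd8a counts as a percent of Cd4 and Cd8a counts together (vertical axis from 0 to 100) in each library, with the exact 95% binomial interval, which covers counting error only. The share is 13.2% in the LFD library of SVC, 37.3% and 57.8% in the HFD and 27.2% to 31.5% in the SW libraries.

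Other genes of T cells were read as lists. Of 25 genes of T cell receptor signalling, 18 were tested in adipocytes, and 6 were higher in HFD than in LFD mice, against 26.5% of all genes. The largest were Il7r, the interleukin 7 receptor, at a log2 fold change of 4.93 (adjusted p = 6.26e-06), Cd28, a costimulatory receptor, at 2.77 (adjusted p = 0.00102), Rhoh at 2.10 and Lcp2 at 2.02. Il7r had 13 to 37 counts in LFD and 1239 to 1829 in HFD adipocytes, far above the counts of the CD3 chains in the same libraries. Il7r and Lcp2 are used by other leukocytes as well. Between SW and HFD adipocytes 4 were higher and 2 lower, against 15.6% and 15.9% of all genes. Trbc2, a constant region of the T cell receptor beta chain, had 9, 10 and 31 counts in HFD and 68, 68 and 23 in SW libraries, at 2.33 (SE 0.61, adjusted p = 0.0192). Ptprcap, a partner of CD45, was at 2.11 (adjusted p = 0.0271). The 2 lower genes were Il7r and Fyn. Other receptor chains did not separate the groups: Trac, a constant region of the alpha chain, was at 1.16 CPM on average in HFD and 1.20 CPM in SW adipocytes. Trbc1, also of the beta chain, was at 0.835 and 1.38 CPM, and for both genes the HFD and SW libraries overlapped. Among the SW libraries of adipocytes, Trbc2 and Ptprcap were lowest in library 3, as the 10 T cell genes were.

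Of 18 cytotoxic and NK genes, 13 were tested in adipocytes. Of these, 3 were higher in SW than in HFD mice, where 15.6% of all genes were, the chemokine gene Ccl5 at 1.91 (adjusted p = 0.0197), the receptor Klrk1 at 1.35 (adjusted p = 0.0335) and the granzyme Gzma at 1.27 (adjusted p = 0.0231). Of 10 regulatory T cell genes, 6 were tested. Tnfrsf4 was higher in SW than in HFD mice, at 2.66 (adjusted p = 0.00682), as was Tnfrsf18, at 1.45 (adjusted p = 0.0451), while Il1rl1 was lower. These 2 of 6 higher and 1 of 6 lower stand beside the same 15.6% and 15.9%. Foxp3, the transcription factor of regulatory T cells, was too low to test in adipocytes, with 1 to 21 counts. In SVC it had 38 counts in LFD mice, 12 and 26 in HFD mice and 47 to 89 in the SW libraries. Of 24 signalling genes tested between SW and HFD SVC, Cd28 and Il7r were lower, at -2.71 and -2.08 on the log2 scale (adjusted p = 0.0384 and 0.0381), where 11.7% of all genes were lower.

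Over the 9 adipocyte libraries, the genes whose log2 CPM followed the mean of Cd3d, Cd3e and Cd3g most closely, of 12436 genes compared, were Ccl5 (Pearson r of 0.981), Tinf2 (0.957), Gm12250 (0.952), Cd79b (0.952) and Sp110 (0.951). Ccl5 had 73, 87 and 188 counts in HFD and 371, 330 and 111 in SW adipocytes. Over the 6 SVC libraries they were Clec4n (0.984), Psmb2 (0.983), Tmc8 (0.983), Cox6b1 (0.981) and Gm10094 (0.979), of 12061 genes. These 6 libraries also differ in depth and in the shares of other cell types, so the values are descriptions. In SVC, Cd3e and Cd3g themselves had an r of 0.283 and 0.324, each with the mean of the other two CD3 chains.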

How the data were processed

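Epididymal adipocytes and SVC of LFD, HFD and SW mice were sequenced, with 3 samples per group by the study's description. The authors mapped reads with Bowtie2 and deposited RSEM expected counts per gene as whole numbers, without normalization. The submitters' processing notes name mm9. Versions of these tools and whether strand was used are not given in the sources used here. The labels list 26 records of 18 libraries, and whether single and paired-end runs were added up is not stated. Each column served as 1 library of the group its name gives. Libraries were numbered in the order of the numbers in their column names, which are in no label, so a library cannot be tied to a mouse, and p-values measure only the spread between libraries, which may be technical. Another 3 columns of values, whose names match no group, were not used. Within each group, every pair of libraries differed by more than sampling noise.

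Counts were fitted with edgeR 4.0.16 in R 4.3.3: filterByExpr (minimum count 10), TMM, robust quasi-likelihood fit, and Benjamini-Hochberg adjustment over all genes with a threshold of 0.05. Each fraction was fitted alone, and both together for comparisons between fractions. Comparisons with the 1 LFD library of SVC were not tested. The tests were tested on simulated data. Alternatives were DESeq2 1.42.0, limma-voom (limma 3.58.1), RLE and upper-quartile factors, other filters, thinning, the groups compared alone, and leaving out each library. Correlations used log2 CPM with a prior count of 2.

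The 10 genes and the other lists were chosen with earlier results of these data known. Of the other lists, at most 4 genes per comparison are named, those past the threshold with the largest log2 fold change and at least 10 counts in each library of the higher group. Named besides are Ptprc, defining markers, genes alike the CD3 chains, and, chosen after their values were seen, Cd8b1, Foxp3, Cd53, Laptm5, Trac, Trbc1 and genes whose exons overlap. One gene of the B cell list is not reported here. Transcript lengths and overlaps are from GENCODE M21 (GRCm38), a build other than mm9. Promoters are from RefSeq. Python 3.11.15, scipy 1.17.1 and matplotlib 3.10.9 were used for intervals and plots. Intervals and floors cover counting error only.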

Additional observations from a re-analysis of the deposited data

Results flagged for a closer look

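The change from HFD to SW mice was tested for a difference between SVC and adipocytes in 1 fit of all libraries (edgeR's quasi-likelihood test, Benjamini-Hochberg adjusted), where 0 of the 10 T cell genes passed. Of all 17441 genes tested, 27.1% passed. Of the other T cell and leukocyte lists, 3 of 24 signalling, 3 of 18 cytotoxic and NK and 2 of 10 regulatory T cell genes passed, each negative. Of 6 pan-leukocyte genes, 1 passed in each direction. Icos, a costimulatory receptor, differed by -3.16 on the log2 scale (SVC minus adipocytes, adjusted p = 0.0332), Bcl11b, a transcription factor of T cells, by -3.11 (adjusted p = 0.0426) and Cd28 by -2.38 (adjusted p = 0.0150). Of the cytotoxic and NK list, Eomes differed by -2.53 (adjusted p = 0.0424) and Klrk1 by -2.37 (adjusted p = 0.0210), and of the regulatory T cell list, Ikzf2 by -2.40 (adjusted p = 0.0380). Icos and Eomes were below the filter on low counts in the fit of adipocytes alone, so their differences rest on low adipocyte counts. Bcl11b and Klrk1 rose between HFD and SW adipocytes, by log2 fold changes of 2.36 and 1.35, and were at -0.84 and -1.09 in SVC, where neither passed. Ptprc differed by -1.62 (adjusted p = 0.0202) and Laptm5 by 1.39 (adjusted p = 0.0420), in opposite directions. In SVC, Ptprc was at -2.55 (adjusted p = 0.0362) and Laptm5 at 1.05 (adjusted p = 0.108). These comparisons share the SVC libraries whose leukocyte genes stand in unequal proportions, as given above.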

How the results depend on the processing

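No paired analysis was possible because the columns carry numbers that are in no label. The number of T cell genes past the threshold stayed at 1 of those tested between HFD and LFD adipocytes and at 0 for the difference between fractions, under 14 and 17 alternatives. Between SW and HFD adipocytes it was 1 with limma-voom and 1 to 8 with each library left out. Between SW and LFD adipocytes it was 4 with DESeq2, 1 after thinning and 0 to 8 with each library left out. For LFD against HFD and SW it was 1 with HFD in place of LFD set apart, an alternative chosen after seeing the data, 2 with DESeq2 and 1 to 2 with each library left out, and for SW against HFD SVC 1 with DESeq2 and 0 to 2 with each library left out. Between fractions, requiring 10 or more counts in each library left 3 genes to test, and 3 passed in SW and 3 in HFD mice, and leaving out each library gave 6 to 9 in SW and 1 to 10 in HFD mice. Of 787 log2 fold changes of single genes under alternatives, 698 kept their direction and their side of the threshold, 45 kept the direction but no longer passed, 30 now passed and 14 changed sign. Of the 23 values past the threshold, 13 fell below it under some alternative and 0 changed sign. In HFD against LFD adipocytes Lck was at -0.072 with limma-voom and -0.066 with upper-quartile factors, and Cd3d at 0.36 after thinning. With each library left out, the values there ran from -0.20 to 0.45 for Lck, -0.89 to 0.13 for Cd3d, -0.019 to 0.98 for Cd2 and -0.22 to 0.76 for Cd4. For SW against HFD SVC they ran from -0.37 to 0.40 for Cd3g, -0.036 to 2.09 for Cd2 and -0.035 to 0.83 for Cd8a. The causes were not tested. With 1 to 38 counts of the CD3 chains in LFD adipocyte libraries, depth limits these comparisons.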
